A study of Mus musculus with 18 samples.

Results

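The semaphorins, ephrins, slits and netrins and their receptors were examined in an immortalized line of mouse brown preadipocytes, the undifferentiated precursors of brown fat cells. Members were chosen by name among protein-coding mouse genes: all genes whose symbol marks a semaphorin, plexin, neuropilin, ephrin, Eph receptor, Slit, Robo, netrin or UNC5. The rule matched 70 genes, of which 69 stood in the count table of 48023 genes, 54 had enough counts for the test used here and 15 did not. Ntn3 was not analysed here. A pair of the matches, Unc50 and Unc5cl, share only the name stem and are no netrin receptors, so they are described apart from the other 67. Cells carried SV40 T antigen and were kept in growth medium. One arm received vehicle (Veh) and the other the fibroblast growth factor FGF6, and cells were collected 4, 8 or 24 h later, giving 6 groups with 3 RNA-seq libraries each. All 18 libraries came from one cell line, and the labels do not say whether the 3 libraries of a group came from separate cultures, so p-values measure the spread between libraries, which may be technical.

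Guidance molecules were first studied as cues that attract or repel growing axons, and the same families act at contacts between many other cells, including vessel and fat precursor cells. Semaphorins signal through plexins. The secreted class 3 semaphorins mostly need a neuropilin to hold them to a plexin, and most membrane-bound classes bind plexins directly. Ephrins are held in the membrane by a lipid anchor (ephrin-A) or a membrane-spanning segment (ephrin-B) and bind Eph receptor tyrosine kinases on a neighbouring cell, with signals running in both directions. Slits signal through Robo receptors, and netrins through DCC, neogenin and the UNC5 receptors.

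The libraries held between 24327816 and 33471980 counts. Each of the 18 lay nearer to the mean of the other libraries of its group than to the mean of any other group. Vehicle library 3 of 24 h stood apart: its counts differed from those of libraries 1 and 2 by a chi-square per degree of freedom of 34.8 and 38.2, against 2.33 to 7.24 for all other pairs within a group. Without it, 46 members were again called at 24 h, 18 higher and 28 lower, and 29 of them at least 2-fold, 10 higher and 19 lower. All 37 log2 fold changes examined at 24 h kept their direction and call, and 4 moved by over 0.1: Plxna4 (4.08 without it), Slit2 (1.07), Sema3g (-1.06) and the partner gene Flrt2 (2.20). Most of these genes were named for calls in fits that included this library, so their kept calls cannot show that it had no effect. Spry4 and Dusp6, feedback inhibitors that FGF signalling induces, were higher in every FGF6 library. At 4 h, Spry4 stood at 8.25 ± 0.844 counts per 1000000 (CPM) with vehicle and 71.7 ± 1.89 with FGF6 (mean ± SD, n = 3, as throughout), and Dusp6 at 30.8 ± 1.05 and 464 ± 16.1. Ucp1, the uncoupling protein of brown fat, was at 0 counts in all groups but FGF6 at 24 h, where it reached 0.739 ± 0.158 CPM. Of 11 markers of preadipocytes and stromal cells, 10 were detected and Dlk1 was at 0 in all groups.

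In all 3 comparisons of FGF6 with vehicle, guidance genes changed in both directions. At 4 h, 38 of the 54 tested members (70.4%) passed an adjusted p of 0.05, against 62.8% of all 15071 genes tested, which is close to the background. Scaled by library size alone, members split into 12 higher and 30 lower and all genes into 3242 and 6495, against 4308 and 5152 here. Of the 38, 12 were higher with FGF6 (28.6% of all genes) and 26 were lower (34.2% of all genes). At 8 h, 46 members (85.2%) passed, against 70.8% of all genes. These were 16 higher (background 32.4%) and 30 lower (background 38.4%). At 24 h, 46 members passed again, against 73.8% of all genes, with 18 higher (background 35.9%) and 28 lower (background 37.9%). The median log2 fold change of the members was -0.31 at 4 h, -0.25 at 8 h and -0.42 at 24 h, while that of all genes tested was -0.05, -0.05 and -0.02. These medians kept their values when members at or under 3 counts in every library of a group were placed at the limit that 3 counts per library allow.

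Most of the changes of members at 4 h were under 2-fold, and more members passed 2-fold with time. With a change of at least 2-fold, 6 members were higher at 4 h (4.96% of all genes) and 6 were lower (6.38%). At 8 h, 8 were higher (7.39%) and 14 were lower (10.9%). At 24 h, 10 were higher (7.44%) and 19 were lower (15.3%). Of the 19 lower at 24 h, 6 belonged to the 8 tested members that had under 10 counts in every library of some group. Among them, Epha3, Ephb1 and Sema5b were under 10 counts in 4 groups and had enough counts only with vehicle, where they were high. Of the higher members at least 2-fold, 1 at each time was among these 8. This was Plxna4, which had enough counts only with FGF6, where it was high. At 8 h, 6 of the 14 lower members were among these 8. When genes under 10 counts in any library were left out, 6 members were higher and 7 lower at 8 h, of 44 tested. Of all 12178 genes then tested, 726 were higher and 895 lower by the same rule. At 24 h, 8 members were then higher and 12 lower, against 691 and 1396 of all genes. Of the 54 members, 6 higher and 6 lower were called, at least 2-fold and without overlap between arms at 4 h (4.86% and 6.17% of all genes). These numbers were 8 and 13 at 8 h (7.19% and 10.6%), and 10 and 19 at 24 h (7.29% and 15%). RNA was taken from whole cultures, so fewer cells of a type and less RNA per cell cannot be told apart.

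Levels of other marker genes moved with the treatment. The 11 stromal markers summed to between 13677 and 14259 CPM with vehicle at 24 h and to between 7115 and 7523 with FGF6. Of the 10 tested, 8 were lower at 24 h (37.9% of all genes), among them Col1a1 (3107 to 443 CPM) and Col1a2 (4193 to 573). The other 2 were higher (35.9%), Vim (3483 to 5244) and Cd34 (16.5 to 43.0). The 6 mature adipocyte markers were low in all groups and summed to between 5.68 and 6.27 CPM with vehicle at 24 h and to at most 0.321 with FGF6, where Adipoq, Plin1, Lep and Retn were at 0. The 6 macrophage markers went in sum from between 14.9 and 15.9 to between 44.3 and 46.9 CPM, of which Cd14 held 41.6, while Ptprc and Adgre1 were at 0 with FGF6. The 6 endothelial markers went from between 0.935 and 1.22 to between 3.74 and 4.81 CPM, of which Cdh5 held 3.59, while Tek, Emcn and Cldn5 were at 0. At 24 h the 6 neuronal markers went from between 0.883 and 1.12 to between 2.61 and 2.95 CPM. Of these, Tubb3 went from 0.873 to 2.70 (log2 fold change 1.62, adjusted p = 1.83e-07), while Rbfox3 and Elavl4 were at 0 in both arms. The 5 Schwann cell markers went from between 5.78 and 6.12 to between 3.12 and 3.57 CPM, and the 5 skeletal muscle markers from between 7.46 and 9.84 to between 1.86 and 2.35. Sox10 and Ckm were the only markers of these lists at 0 with FGF6 at 24 h. Sox10 was at 0 with vehicle at 4 h as well. In vehicle at 24 h, 1 Schwann cell marker and 1 skeletal muscle marker already had at most 3 counts in every library. The part of these shifts in the results below was not tested.

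**Figure D1:**
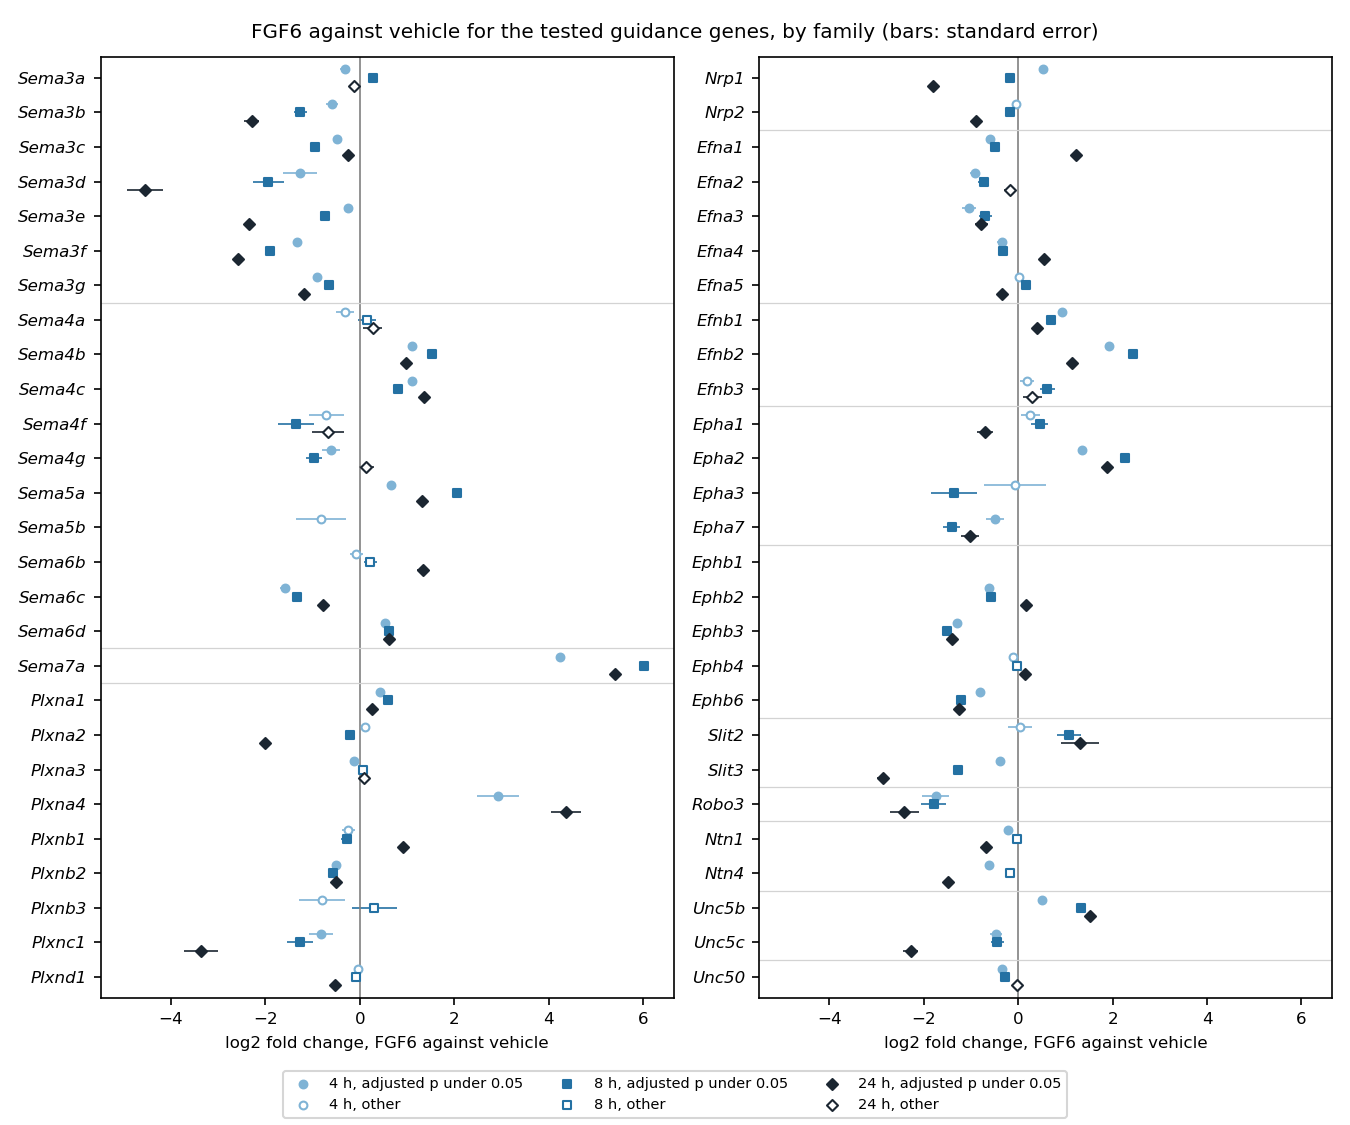
Log2 fold change of FGF6 against vehicle (x axis) for the 54 tested members (y axis, grouped by family) at 4, 8 and 24 h, with the standard error as bars; filled symbols passed an adjusted p of 0.05. Values where a group had at most 3 counts in every library are not drawn, and Sema7a lies farthest to the right, at 4.24, 6.03 and 5.41.

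The secreted class 3 semaphorins were mostly lower with FGF6 than with vehicle. All 7 were lower with FGF6 at 4 h (34.2% of all genes), 6 of 7 at 8 h (38.4%) and 6 of 7 at 24 h (37.9%). Their median log2 fold changes were -0.59, -0.94 and -2.29, against -0.05, -0.05 and -0.02 over all genes. Summed per length, as CPM per kilobase of exon (RPKM), the family stood at 29.0 ± 0.549 with vehicle and 15.9 ± 1.19 with FGF6 at 24 h. The sums at 4 h were 18.2 ± 0.916 and 10.9 ± 0.540, so the later sum was higher in both arms. Sema3f, a neuropilin-2 ligand, held 34.7, 37.1 and 34.2 CPM in the vehicle libraries at 24 h and 5.29, 5.39 and 7.23 in the FGF6 libraries. It was 5.93-fold lower (log2 fold change -2.57 ± 0.077, standard error; adjusted p = 4.75e-20), after 2.53-fold at 4 h and 3.76-fold at 8 h. The arms were fully apart at each time.

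Sema3e, which binds plexin D1 without a neuropilin, changed little at first. Its FGF6 libraries held 11.7, 11.0 and 11.3 CPM at 4 h against 14.4, 12.6 and 13.6 with vehicle. At 24 h they held 5.29, 6.72 and 6.06 against 30.2, 29.4 and 32.2. The gap widened from both sides, since the vehicle level more than doubled over the same time, and the log2 fold change went from -0.26 ± 0.075 to -2.34 ± 0.077 (adjusted p = 0.00425 and 2.9e-19).

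Sema3d was a low gene with a wide gap. It held 3.57, 3.47 and 3.45 CPM with vehicle at 24 h and 0.0365, 0.214 and 0.184 with FGF6, which is 1 to 6 counts per library. The fitted change was 23.4-fold lower (log2 fold change -4.55 ± 0.38, adjusted p = 5.74e-11). Sema3b was lower by 1.50-fold at 4 h, 2.40-fold at 8 h and 4.91-fold at 24 h, when vehicle libraries held 6.62, 7.69 and 7.65 CPM and FGF6 libraries 1.64, 1.29 and 1.54. Sema3g was lower by 1.87-fold, 1.58-fold and 2.27-fold, and fell with time in vehicle as well, from 13.2 ± 0.625 CPM at 4 h to 7.33 ± 0.765 at 24 h. Sema3c, with 12.9 RPKM the highest class 3 gene in vehicle at 24 h, was lower at all 3 times by less than 2-fold. Sema3a, the founding axon-repelling semaphorin, was the exception to the common direction: it was lower at 4 h, higher at 8 h (log2 fold change 0.28, adjusted p = 0.00176) and not called at 24 h.

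**Figure D2:**
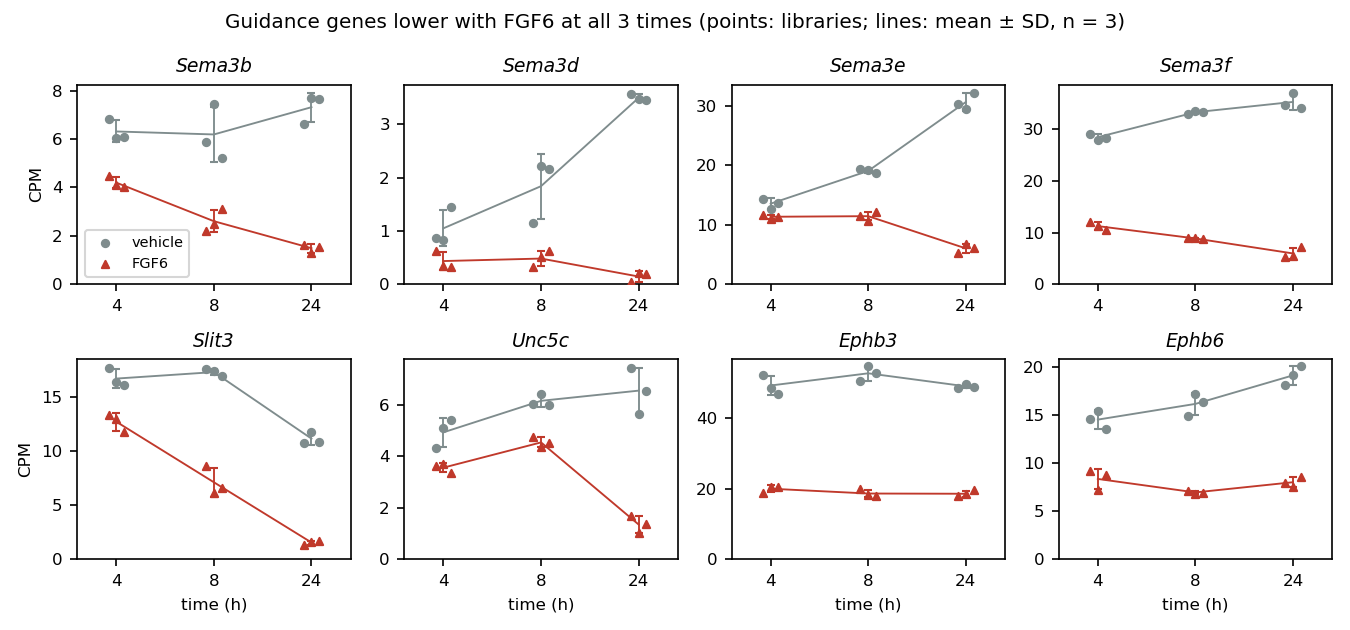
CPM (y axis, from 0) of 8 members lower with FGF6 at 4, 8 and 24 h (x axis); each point is a library, and lines join the group means with SD bars (n = 3). In every panel the FGF6 points lie under the vehicle points, and for Sema3b, Sema3d, Sema3e, Sema3f and Unc5c the gap is widest at 24 h.

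The transmembrane semaphorins of classes 4, 5 and 6 were split in direction. Among 10 tested, 4 were higher with FGF6 (28.6% of all genes) and 2 lower (34.2%) at 4 h. At 8 h, 4 were higher (32.4%) and 4 lower (38.4%), and at 24 h, 5 were higher (35.9%) and 2 lower (37.9%). Their summed level per length was 20.3 ± 0.527 RPKM with vehicle and 36.1 ± 0.419 with FGF6 at 4 h, and 21.3 ± 1.26 against 41.7 ± 1.34 at 24 h. Sema4b held 47.0, 46.4 and 44.6 CPM with vehicle at 4 h and 98.5, 97.5 and 102 with FGF6, a 2.16-fold rise that became 2.92-fold at 8 h and 1.96-fold at 24 h. Sema4c, a ligand of plexin B2, held 26.3, 29.2 and 26.9 CPM against 58.5, 59.7 and 58.4 at 4 h, 2.14-fold higher (adjusted p = 6.22e-15), and was 2.56-fold higher at 24 h. Of its 4593 exonic bases, 334 are shared with a gene on the other strand, D430040D24Rik, and the strand setting of the counting is not given in the sources used here, so reads from this stretch cannot be told apart.

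The fold change of Sema5a was largest at 8 h, from 10.9, 12.7 and 10.9 CPM with vehicle to 47.2, 49.2 and 47.0 with FGF6. That is 4.17-fold (log2 fold change 2.06 ± 0.06, adjusted p = 4.11e-20), against 1.57-fold at 4 h and 2.48-fold at 24 h. Its mean level was highest at 24 h in both arms, at 36.3 CPM with vehicle and 89.9 with FGF6. Class 5 semaphorins carry thrombospondin repeats beside the semaphorin domain, and the other class 5 gene, Sema5b, moved the opposite way at very low counts. Sema5b had 34 counts over the 3 vehicle libraries at 24 h and 1 over the FGF6 libraries, a ratio of 32.9 with an exact 95% counting interval of 5.52 to 1336.

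The class 6 genes each had their own course. Sema6b did not pass the test at 4 or 8 h and rose at 24 h, from 6.48, 6.18 and 5.26 CPM to 15.5, 14.3 and 16.0 (2.53-fold, log2 fold change 1.34 ± 0.12, adjusted p = 2e-10). Sema6c was lower at all times, by 3.02-fold at 4 h, 2.52-fold at 8 h and 1.72-fold at 24 h. Its FGF6 libraries at 4 h held 3.70, 3.89 and 3.05 CPM against 10.1, 11.3 and 10.9. Sema6d was higher at all times by less than 2-fold, and Sema4a was the only tested member that passed at none of the 3 times (12.1% of all genes).

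Sema7a, the one semaphorin anchored in the membrane by a glycolipid, rose far more than any other tested member. With vehicle at 4 h its libraries held 42.0, 41.0 and 38.3 CPM, and with FGF6 they held 761, 770.5 and 764. At 8 h the vehicle libraries were at 11.0, 9.79 and 8.35 and the FGF6 libraries at 634, 646 and 631. At 24 h they were at 12.6, 10.9 and 10.6 against 458, 498 and 491. The arms were thus more than 10-fold apart at every time, with changes of 18.9-fold at 4 h (log2 fold change 4.24 ± 0.058), 65.4-fold at 8 h (6.03 ± 0.066) and 42.5-fold at 24 h (5.41 ± 0.065), the largest adjusted p being 6.26e-26. Per length, Sema7a went from 12.3 RPKM with vehicle to 232 with FGF6 at 4 h, when the next member, Plxna1, was at 57.2. Its log2 fold change was 1.79 larger at 8 h than at 4 h (adjusted p = 7.59e-14), while its level with FGF6 was lower at 8 h, since the vehicle level fell further, from 40.4 ± 1.90 to 9.71 ± 1.32 CPM. The gene lies at chr9:57940112-57962865 on the plus strand of GRCm38.

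The known receptors of SEMA7A are plexin C1 and integrins with the beta 1 chain, and their genes did not move together. Plxnc1 held 1.30, 2.56 and 1.77 CPM with vehicle at 24 h and 0.109, 0.286 and 0.147 with FGF6, 3 to 8 counts per library (log2 fold change -3.36 ± 0.36, adjusted p = 7.4e-09). Itga1, the alpha 1 integrin chain that pairs with beta 1, held 14.4, 13.6 and 15.4 CPM with vehicle at 8 h and 2.67, 2.55 and 1.93 with FGF6 (log2 fold change -2.58 ± 0.13, adjusted p = 2.65e-15). It was lower at 4 h and 24 h too, by 1.23 and 1.93 on the log2 scale. The beta 1 chain gene itself, Itgb1, named after its values were seen, was higher by 0.35, 0.30 and 0.32 on the log2 scale at the 3 times.

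**Figure D3:**
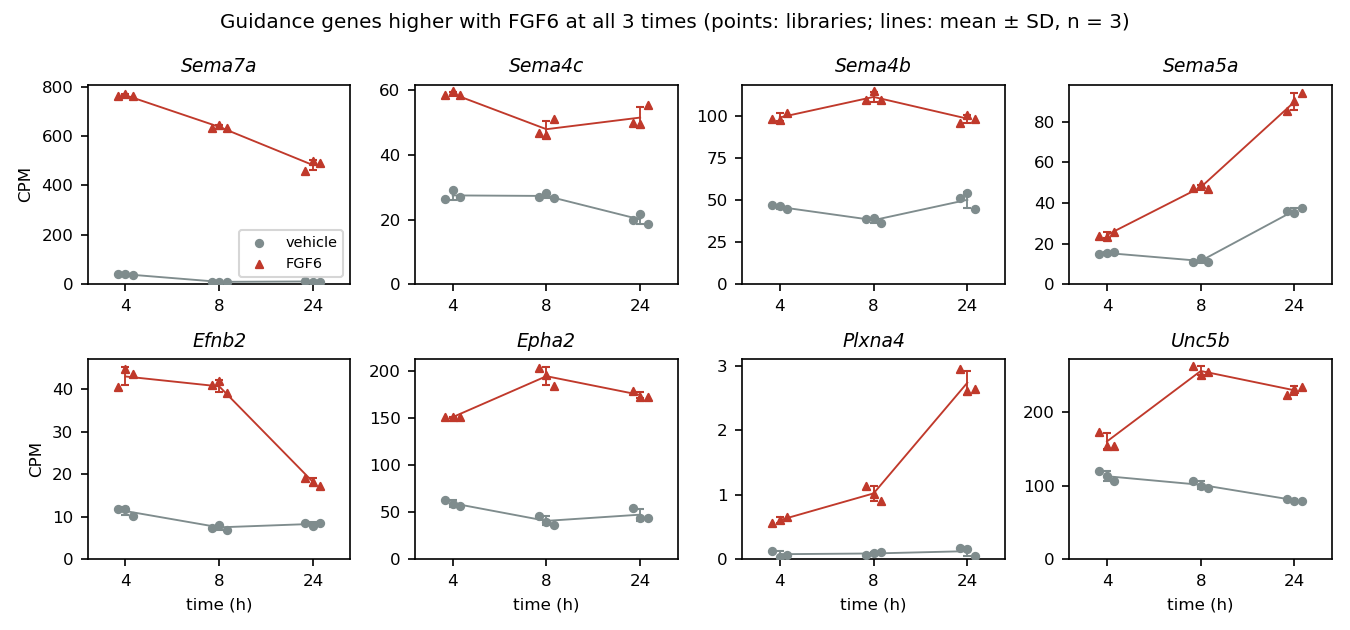
CPM (y axis, from 0) of 8 members higher with FGF6 at 4, 8 and 24 h (x axis); each point is a library, and lines join the group means with SD bars (n = 3). In all panels the FGF6 points lie above the vehicle points, with Sema7a between 458 and 770.5 CPM against 8.35 to 42.0.

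The start regions of 4 members that were higher with FGF6 and 2 that were lower at all 3 times are shown. They were picked by hand from the 11 members higher and the 16 lower at all 3 times, so they are no unselected sample. RefSeq promoters (GRCm38.p6, 250 bases before to 50 after the start site) matched 61 of the 70 members. Plxna4, Sema3b and Sema3f had no entry. Motifs were searched on both strands, and matches are in capitals: AP-1 as TGANTCA, CRE as TGACGTCA, ETS as CCGGAAG, EGR as GCGGGGGCG, SP as GGGCGG and TATA as TATAAA. An EGR match can overlap an SP match.
Sema7a: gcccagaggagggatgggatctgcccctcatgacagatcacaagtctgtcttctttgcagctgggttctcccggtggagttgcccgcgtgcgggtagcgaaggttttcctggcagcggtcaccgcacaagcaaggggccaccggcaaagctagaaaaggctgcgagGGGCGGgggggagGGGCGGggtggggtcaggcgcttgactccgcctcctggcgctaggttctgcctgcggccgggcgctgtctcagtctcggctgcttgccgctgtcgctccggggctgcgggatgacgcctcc
Efnb2: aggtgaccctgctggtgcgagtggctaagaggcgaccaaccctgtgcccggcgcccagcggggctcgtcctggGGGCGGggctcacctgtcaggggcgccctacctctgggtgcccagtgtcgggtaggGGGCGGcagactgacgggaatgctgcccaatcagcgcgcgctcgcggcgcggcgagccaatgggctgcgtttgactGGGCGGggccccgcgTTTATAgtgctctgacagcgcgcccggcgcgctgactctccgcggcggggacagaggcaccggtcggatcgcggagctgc
Epha2: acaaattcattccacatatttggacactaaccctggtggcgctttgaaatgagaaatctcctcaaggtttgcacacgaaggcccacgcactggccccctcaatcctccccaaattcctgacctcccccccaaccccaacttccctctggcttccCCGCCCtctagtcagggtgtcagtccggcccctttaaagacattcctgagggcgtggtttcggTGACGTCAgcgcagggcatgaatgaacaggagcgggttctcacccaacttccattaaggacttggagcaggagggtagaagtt
Sema4c: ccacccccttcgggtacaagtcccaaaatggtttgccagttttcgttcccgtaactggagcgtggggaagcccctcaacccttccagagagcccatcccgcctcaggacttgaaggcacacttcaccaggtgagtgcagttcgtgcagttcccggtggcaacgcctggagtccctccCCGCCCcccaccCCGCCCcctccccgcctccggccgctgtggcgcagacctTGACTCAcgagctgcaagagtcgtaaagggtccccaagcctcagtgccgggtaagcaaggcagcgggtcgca
Slit3: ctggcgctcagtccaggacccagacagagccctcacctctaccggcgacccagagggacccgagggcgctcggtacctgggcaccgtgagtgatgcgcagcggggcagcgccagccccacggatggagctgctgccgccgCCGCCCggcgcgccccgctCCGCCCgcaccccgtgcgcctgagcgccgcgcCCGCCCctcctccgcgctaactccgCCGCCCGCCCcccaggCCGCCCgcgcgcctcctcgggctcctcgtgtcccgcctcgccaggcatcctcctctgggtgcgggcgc
Sema3d: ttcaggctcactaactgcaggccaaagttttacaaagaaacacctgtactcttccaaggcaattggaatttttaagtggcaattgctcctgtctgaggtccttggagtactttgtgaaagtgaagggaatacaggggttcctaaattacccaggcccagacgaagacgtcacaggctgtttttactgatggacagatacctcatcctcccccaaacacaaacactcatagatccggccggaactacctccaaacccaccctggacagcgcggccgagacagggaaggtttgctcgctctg
The windows are chr9:57939862-57940161 (plus strand) for Sema7a, chr8:8661193-8661492 (minus strand) for Efnb2, chr4:141300971-141301270 (plus strand) for Epha2, chr1:36558332-36558631 (minus strand) for Sema4c, chr11:35121206-35121505 (plus strand) for Slit3 and chr5:12382916-12383215 (plus strand) for Sema3d. The RefSeq start lies 232 bases from the GENCODE gene start for Slit3, 219 for Sema3d, 32 for Sema4c and 19 for Epha2, and at the same base for Sema7a and Efnb2.

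The GC content of these windows ran from 49.7% for Sema3d and 54.7% for Epha2 to 78.3% for Slit3. Sema7a, Efnb2, Epha2, Sema4c and Slit3 all had SP matches, as did 45 of the 61 member promoters (73.8%), against 61.1% of the promoters of all tested genes. The 61 include members that were not tested, such as Epha5 and Epha8, so the sets are unlike. For Robo1, Sema3a and Sema4d the RefSeq start lies 354843, 271370 and 37064 bases from the GENCODE gene start. Epha2 alone among the members held the CRE letters, 33 bases before the start site, which 2.97% of promoters of tested genes held. Sema4c alone held an AP-1 match, TGACTCA, 22 bases before the start site (1.64% of members, 5.43% of promoters of tested genes). Efnb2 had the TATA letters on the minus strand 30 bases before the start site, a match it shared with Slit2 only (3.28% of members against 7.39%). EGR letters were in 7 members (11.5% against 5.3%) and ETS letters in 3 (4.92% against 16.6%). Sema3d held none of the 6. The median GC content was 65% for members and 60.7% for promoters of tested genes. A match describes the letters only.

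Plexins, the receptors of semaphorins, changed in both directions. Of 9 tested, 2 were higher (28.6% of all genes) and 3 lower (34.2%) at 4 h. At 8 h, 2 were higher (32.4%) and 4 lower (38.4%), and at 24 h, 3 were higher (35.9%) and 5 lower (37.9%). Plxnb2 was the highest member per length in vehicle at 24 h, at 70.9 ± 1.51 RPKM, and was lower with FGF6 at all 3 times by less than 2-fold (log2 fold change -0.51, -0.57 and -0.51). Plxna1 was higher at all 3 times, by 0.43, 0.60 and 0.25 on the log2 scale, and shares 970 of its exonic bases with Gm26811 on the other strand. Plxna2, a receptor for class 6 and, with neuropilins, class 3 semaphorins, did not pass at 4 h, with 63.9, 60.4 and 58.0 CPM against 65.2, 63.3 and 67.2 (log2 fold change 0.10, adjusted p = 0.0701, and 0.0298 with DESeq2). At 24 h it held 72.8, 79.0 and 76.4 CPM with vehicle and 19.0, 19.4 and 18.8 with FGF6, 3.99-fold lower (log2 fold change -2.00 ± 0.054, adjusted p = 4.27e-21).

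Plxna4 was the plexin that rose at least 2-fold, from near the limit of detection. It had enough counts for the test only through its FGF6 groups, where it was high. Its vehicle libraries held 1 to 4 counts at 4 h, 2 to 3 at 8 h and 1 to 5 at 24 h, and its FGF6 libraries 15 to 19, 22 to 35 and 72 to 81. In CPM, the 24 h libraries stood at 0.175, 0.151 and 0.0420 with vehicle and 2.95, 2.61 and 2.64 with FGF6 (log2 fold change 4.37 ± 0.32, adjusted p = 3.25e-12). At 8 h the summed counts were 87 against 8, a ratio of 11.8 with an exact 95% counting interval of 5.75 to 28.3. Plxna4os3, on the other strand, overlaps 110 of its exonic bases. Even at 24 h with FGF6 it stood at 0.194 RPKM. Plxnb3 went the other way at like counts, with 49 counts over the vehicle libraries and 4 over the FGF6 libraries at 24 h (ratio 11.8, interval 4.34 to 45.2).

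The neuropilins, co-receptors for class 3 semaphorins and for vascular endothelial growth factor, ended lower. Nrp1 first rose and then fell. At 4 h its libraries held 278, 281 and 282 CPM with vehicle and 399, 408 and 409 with FGF6, 1.45-fold higher (adjusted p = 5.41e-13). At 8 h FGF6 libraries were slightly lower, at 261, 277 and 267 against 297, 307 and 306. At 24 h they held 105, 103 and 103 against 342, 368 and 377, 3.49-fold lower (log2 fold change -1.80 ± 0.035, adjusted p = 7.37e-24). Nrp2 did not pass at 4 h and was lower by 0.18 on the log2 scale at 8 h and by 0.90 at 24 h. Summed per length, the neuropilins went from 62.8 ± 0.685 RPKM with vehicle to 74.7 ± 0.719 with FGF6 at 4 h, and from 80.4 ± 1.72 to 33.8 ± 0.626 at 24 h.

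**Figure D4:**
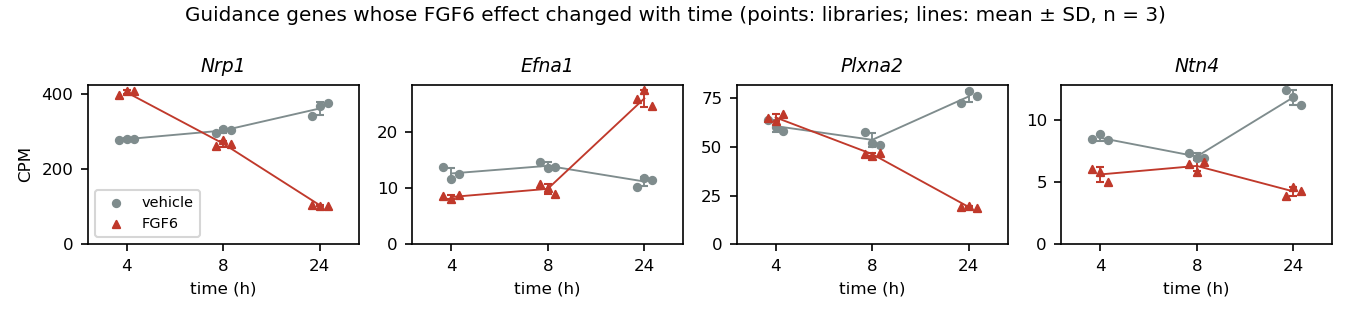
CPM (y axis, from 0) of Nrp1, Efna1, Plxna2 and Ntn4 at 4, 8 and 24 h (x axis); each point is a library, and lines join the group means with SD bars (n = 3). Nrp1 and Efna1 change the side on which FGF6 lies, and the arms of all 4 genes are apart at 24 h.

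The ephrin-A ligands were lower early and mixed at 24 h. At 4 h, 4 of 5 were lower (34.2% of all genes) and none was higher (28.6%). At 24 h, Efna1 and Efna4 were higher (35.9% of all genes) and Efna3 and Efna5 lower (37.9%). Efna1 held 13.7, 11.6 and 12.5 CPM with vehicle at 4 h and 8.50, 8.00 and 8.69 with FGF6, 1.50-fold lower. At 24 h it held 10.2, 11.8 and 11.5 against 25.9, 27.5 and 24.6, 2.33-fold higher (log2 fold change 1.22 ± 0.076, adjusted p = 1.8e-13). The arms did not overlap at any of the 3 times. Efna3 was lower at all 3 times, most at 4 h, with 3.44, 4.42 and 3.40 CPM against 2.18, 1.72 and 1.54 (2.07-fold, adjusted p = 1.78e-06). Gm15998, on the other strand, overlaps 344 of its exonic bases.

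All 3 ephrin-B ligands were higher at 8 h (32.4% of all genes). Efnb2, the ephrin that marks arteries, held 11.9, 11.8 and 10.2 CPM with vehicle at 4 h and 40.6, 44.7 and 43.6 with FGF6 (3.80-fold, log2 fold change 1.92 ± 0.065, adjusted p = 1.41e-18). It was 5.43-fold higher at 8 h, at 41.0, 41.8 and 39.1 against 7.42, 8.07 and 6.91. At 24 h it was 2.20-fold higher, at 19.1, 18.2 and 17.1 against 8.58, 7.84 and 8.41. Efnb1 was higher at all times, by 0.92, 0.70 and 0.39 on the log2 scale, and Efnb3 passed at 8 h only. The ephrin-B genes summed to 9.81 ± 0.383 RPKM with vehicle and 20.8 ± 0.881 with FGF6 at 4 h.

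Of the EphA receptors, which mainly bind ephrin-A, Epha2 carried nearly all of the level. It held 63.5, 58.7 and 56.3 CPM with vehicle at 4 h and 151, 152 and 151 with FGF6, 2.54-fold higher. At 8 h it held 45.8, 40.0 and 36.4 against 204, 196 and 185, 4.79-fold higher (log2 fold change 2.26 ± 0.069, adjusted p = 9.12e-20). At 24 h it held 54.6, 43.9 and 43.6 against 179, 173 and 173, 3.69-fold higher. Per length, it made up 37.4 of the 38.3 RPKM of all EphA genes with FGF6 at 24 h. Epha2 thus rose at times when its ligand gene Efna1 was lower, at 4 and 8 h, and when it was higher, at 24 h.

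The other tested EphA genes were low. Epha7 was lower with FGF6, at 5.71, 6.20 and 7.09 CPM against 1.95, 2.49 and 2.75 at 8 h (2.66-fold, adjusted p = 1.85e-07). Its call at 4 h did not hold when single libraries were left out: the log2 fold change was -0.49 (adjusted p = 0.0272), and without vehicle library 2 or 3 or FGF6 library 2 or 3 of 4 h it was between -0.46 and -0.40, with adjusted p between 0.0725 and 0.116. Epha1, which shares 236 of its exonic bases with Zyx on the other strand, was higher at 8 h and lower at 24 h, by less than 2-fold. Epha3 had 44 counts over the vehicle libraries at 24 h and 2 over the FGF6 libraries (ratio 21.3, exact 95% counting interval 5.55 to 181).

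Most EphB receptors were lower with FGF6. Of 5 tested, 3 were lower at 4 h (34.2% of all genes), 4 at 8 h (38.4%) and 3 at 24 h (37.9%), when 2 were higher (35.9%). Their summed level per length went from 19.9 ± 0.663 to 12.6 ± 0.453 RPKM at 4 h and from 20.4 ± 0.564 to 13.7 ± 0.725 at 24 h. Ephb3, a receptor for ephrin-B ligands that sorts cells in the intestine, held 52.4, 48.6 and 47.0 CPM with vehicle at 4 h and 18.9, 20.5 and 20.6 with FGF6 (2.47-fold lower, log2 fold change -1.30 ± 0.054, adjusted p = 1.05e-16). It was 2.83-fold lower at 8 h and 2.64-fold lower at 24 h, so both arms were nearly level over time. Ephb6, which lacks kinase activity, was lower by 1.75-fold, 2.33-fold and 2.39-fold, with 18.1, 19.1 and 20.1 CPM against 7.88, 7.54 and 8.55 at 24 h.

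The remaining EphB genes differed from this course. Ephb2 was lower at 4 and 8 h, by 0.61 and 0.58 on the log2 scale, and slightly higher at 24 h (0.16, adjusted p = 0.043), with overlapping libraries. Ephb4, which pairs with ephrin-B2 at vessels, passed at 24 h only, with a log2 fold change of 0.15. Ephb1 had no count in any FGF6 library at 24 h and 34 over the vehicle libraries, at least 3.47-fold lower against a floor of 3 counts per library. At 8 h it had 1 count with FGF6 and 32 with vehicle.

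The Slit ligands went in opposite directions. Slit3 held 17.7, 16.4 and 16.1 CPM with vehicle at 4 h and 13.4, 13.0 and 11.8 with FGF6, 1.31-fold lower. At 24 h it held 10.8, 11.8 and 10.9 against 1.35, 1.54 and 1.72, 7.27-fold lower (log2 fold change -2.86 ± 0.13, adjusted p = 3.29e-16). Slit2 was rarer and did not pass at 4 h. It was higher at 8 h, at 2.25, 2.15 and 3.20 CPM against 0.979, 1.05 and 1.57 (log2 fold change 1.07 ± 0.25, adjusted p = 0.00045), and at 24 h, at 0.985, 0.679 and 0.440 against 0.350, 0.332 and 0.126 (adjusted p = 0.00505). Its interaction between 4 and 8 h was 1.03 and lost the threshold in 6 of the fits that left out 1 library, where it was between 0.86 and 1.03; that between 4 and 24 h was 1.28 and lost it in 3, between 0.97 and 1.14. Since Slit3 held most of the level, the summed Slit level per length went from 1.89 ± 0.0837 to 0.303 ± 0.0205 RPKM at 24 h.

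Robo receptors were scarcely detected. Robo3, an unusual Robo that does not bind Slits in mammals, was the only one with enough counts. It held 1.39, 1.33 and 1.34 CPM with vehicle at 4 h and 0.592, 0.191 and 0.447 with FGF6, and at 24 h 1.54, 1.69 and 1.43 against 0.255, 0.357 and 0.257. It was lower by 3.36-fold, 3.45-fold and 5.31-fold at 4, 8 and 24 h, with adjusted p of 8.51e-06, 1.37e-06 and 8.68e-08. Robo2 had no count in any library, and Robo1 and Robo4 were among the untested members.

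The tested netrins were lower at 4 and 24 h and did not pass at 8 h. Ntn1, the classic axon-attracting netrin, was at 14.3 RPKM with vehicle and 8.91 with FGF6 at 24 h (log2 fold change -0.68). Ntn4, a netrin of basement membranes, held 8.43, 8.81 and 8.38 CPM against 6.06, 5.77 and 4.96 at 4 h. At 24 h it held 12.4, 11.8 and 11.2 against 3.87, 4.57 and 4.26, 2.79-fold lower (log2 fold change -1.48 ± 0.095, adjusted p = 2.72e-13). At 8 h the log2 fold change was -0.17 (adjusted p = 0.111), and -0.23 (adjusted p = 0.0317) when only library sizes were used for scaling.

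The UNC5 receptors split between a gene that rose and one that fell. Unc5b, a netrin receptor of vessels, held 119.7, 113 and 106 CPM with vehicle at 4 h and 173, 154 and 154 with FGF6. At 8 h it held 107, 99.7 and 96.9 against 263, 251 and 255, and at 24 h 81.6, 79.4 and 79.8 against 223, 232 and 235. The change grew from 1.42-fold to 2.53-fold and 2.86-fold (log2 fold change 1.52 ± 0.047 at 24 h, adjusted p = 1.05e-19). Unc5c held 7.46, 5.67 and 6.56 CPM with vehicle at 24 h and 1.68, 1.00 and 1.36 with FGF6, 4.86-fold lower (log2 fold change -2.28 ± 0.16, adjusted p = 1.08e-12), after 1.38-fold and 1.36-fold at 4 and 8 h. Gm15688, on the other strand, overlaps 118 of its exonic bases. Unc5b made up most of the summed level, which went from 13.2 ± 0.233 to 36.8 ± 1.01 RPKM at 24 h.

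The 15 untested members had at most 13 counts in any library. Epha5, Epha6, Ntn5, Robo2 and Unc5cl had none, and Epha10, Epha4, Epha8, Robo1, Robo4, Sema4d, Sema6a, Slit1, Unc5a and Unc5d had some. Unc50, a Golgi protein that shares only the name stem, was lower at 4 h and 8 h, by 0.35 and 0.28 on the log2 scale, and did not pass at 24 h.

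**Figure D5:**
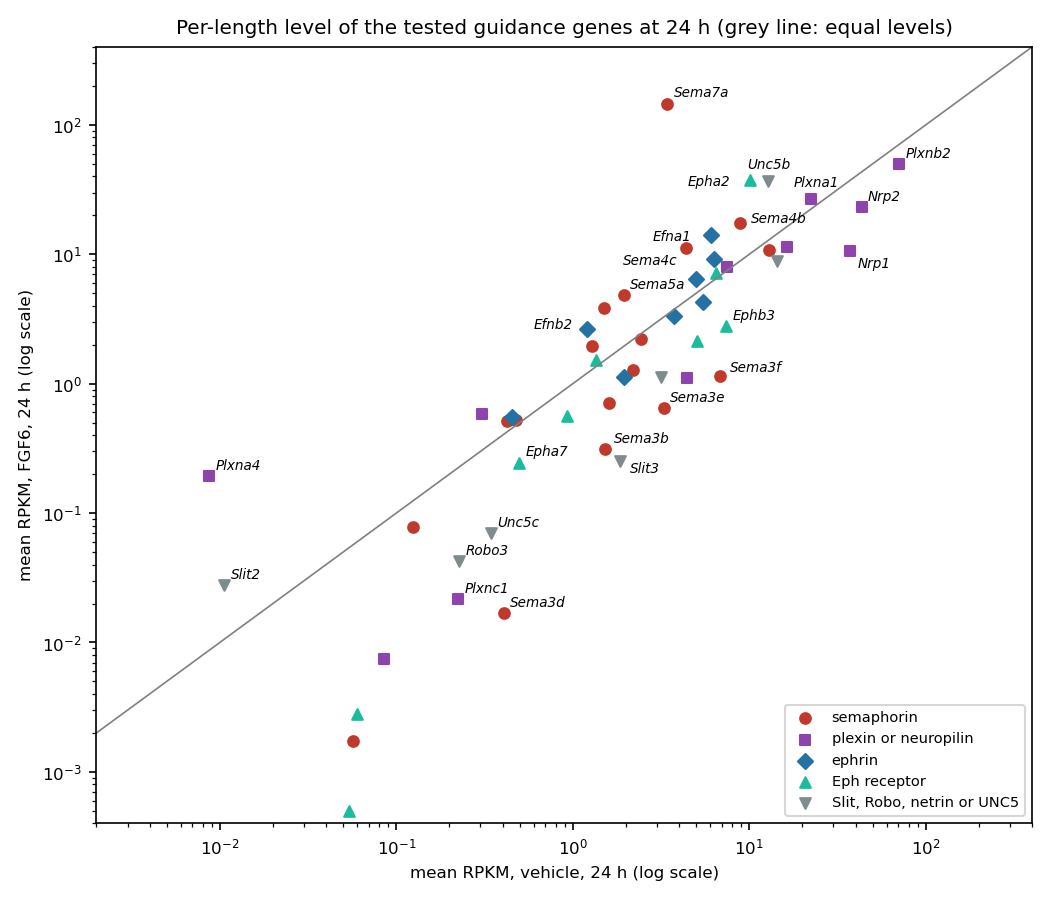
Mean level per exon length (RPKM, log scales) of the tested family members with vehicle (x axis) and FGF6 (y axis) at 24 h, with the line of equal levels in grey and symbols by family. Sema7a stands above the line at 3.44 against 146, and Slit3, Sema3d and Plxnc1 stand below it; Ephb1, at 0 with FGF6, is drawn at the lower edge.

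Set side by side, 11 members were higher with FGF6 at all 3 times (20.4% of all genes) and 16 were lower at all 3 (23% of all genes). The 11 were Efnb1, Efnb2, Epha2, Plxna1, Plxna4, Sema4b, Sema4c, Sema5a, Sema6d, Sema7a and Unc5b. The 16 were Efna3, Epha7, Ephb3, Ephb6, Plxnb2, Plxnc1, Robo3, Sema3b, Sema3c, Sema3d, Sema3e, Sema3f, Sema3g, Sema6c, Slit3 and Unc5c. Another 8 passed in both directions at different times (8.19% of all genes), Nrp1 and Efna1 among them. At least 2-fold at all 3 times were 4 higher members, Efnb2, Epha2, Plxna4 and Sema7a (3.07% of all genes), and 4 lower ones, Ephb3, Robo3, Sema3d and Sema3f (4.09% of all genes). Of these, Plxna4 had enough counts for the test only through its FGF6 groups, where it was high. At least 2-fold at 24 h only were 9 members (8.7% of all genes): Efna1, Nrp1, Ntn4, Plxna2, Plxnb3, Sema3e, Sema3g, Sema6b and Unc5c.

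The effect of FGF6 differed between times for many members, by the interaction term of the model. Between 4 and 8 h it differed for 22 of 54 (30.6% of all genes), with 11 differences up (15.5%) and 11 down (15.1%). Between 8 and 24 h it differed for 38 (45.1% of all genes), with 12 up (22.6%) and 26 down (22.5%). Between 4 and 24 h it differed for 40 (53.5% of all genes), with 18 up (28.3%) and 22 down (25.2%). Without vehicle library 3 of 24 h, the counts were 38 and 40. Each pair of these comparisons shares libraries. The differences between 8 and 24 h were largest in size among named members for Sema3d (-2.61 on the log2 scale), Plxnc1 (-2.08), Unc5c (-1.84), Plxna2 (-1.78), Efna1 (1.72) and Nrp1 (-1.62).

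These genes also differed between times in vehicle. Each time point was a separate collection of cells, so culture time and collection cannot be told apart. Between vehicle at 24 h and vehicle at 4 h, 41 of 54 members passed (60.8% of all genes), 24 higher (30.9%) and 17 lower (30%) at 24 h, and 39 passed without vehicle library 3 of 24 h. Sema3a rose by 2.37 on the log2 scale, Sema3d by 1.74, Sema5a by 1.23, Sema3e by 1.17 and Sema3c by 1.00. Sema7a fell by 1.83 and Slit2 fell by 2.41. With FGF6 the mean of Sema3e was 11.3 CPM at 4 h and 6.02 at 24 h, and that of Sema3d 0.435 and 0.145, a difference over time that was not tested in this arm. Slit3 fell by 0.58 in vehicle.

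Of 71 other genes of these pathways (co-receptors and effectors), 61 were tested. At 4 h, 46 passed (62.8% of all genes), 26 higher (28.6%) and 20 lower (34.2%). At 8 h, 50 passed (70.8%), 29 higher (32.4%) and 21 lower (38.4%). At 24 h, 48 passed (73.8%), 27 higher (35.9%) and 21 lower (37.9%). Their median log2 fold changes were 0.05, 0.06 and 0.10. Neogenin (Neo1), a netrin receptor that also binds repulsive guidance molecules, held 223, 225 and 232 CPM with vehicle at 24 h and 528, 539 and 540.0 with FGF6. It was higher by 0.12, 0.74 and 1.24 on the log2 scale at 4, 8 and 24 h (adjusted p = 1.47e-20 at 24 h), and the first of these was 0.022 (adjusted p = 0.622) when only library sizes were used for scaling. Dcc, the other main netrin receptor, had 1 count in all 18 libraries together. Rgmb, a neogenin ligand, held 24.8, 24.5 and 24.2 CPM with vehicle at 8 h and 125, 125 and 125 with FGF6 (log2 fold change 2.35 ± 0.044).

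Other partners moved by more than 2-fold. Ngef, an exchange factor downstream of EphA receptors, was higher by 2.82, 3.80 and 2.81 log2 units, at 54.3, 57.1 and 62.5 CPM against 4.55, 3.56 and 4.38 at 8 h. Met, the hepatocyte growth factor receptor that associates with plexin B proteins, was higher by 1.80 at 4 h and 2.17 at 24 h. Flrt3 and Flrt2, ligands of UNC5 receptors, were higher by 2.59 at 4 h and 2.46 at 24 h. Vehicle libraries held only 3 to 10 counts of Flrt3 at 4 h and 3 to 12 of Flrt2 at 24 h. Flrt1, not picked by the naming rule, went from 3.94 CPM with vehicle to 2.24 with FGF6 at 4 h. Its means were 2.85 and 2.78 at 8 h, and 1.35 and 0.749 at 24 h. Kdr, the receptor that shares neuropilin with semaphorins, was higher by 2.11 at 8 h, when vehicle libraries held only 7 to 14 counts. Its means were 0.903 CPM with vehicle and 1.59 with FGF6 at 4 h, and 0.365 and 1.62 at 8 h. At 24 h they were 0.823 and 1.09. Rnd3, a small GTP-binding protein that acts on the cytoskeleton, fell by 0.81, 1.55 and 3.01 log2 units, to 21.7, 21.0 and 20.9 CPM at 24 h against 164, 173 and 174. Kalrn, an exchange factor of EphB signalling, fell by 0.93 at 4 h and by 1.33 at 24 h. Arhgef15, another Eph exchange factor, fell by 2.01 at 8 h, and Fes, a kinase of plexin signalling, fell by 1.79 at 24 h.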

How the data were processed

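RNA-seq counts per gene were deposited for 18 libraries, 3 in each of 6 groups. Per the labels and the study's methods, the authors aligned reads to GRCm38 with STAR and counted them per gene with featureCounts of Subread; versions, annotation release, strand setting and treatment of multimapping reads are not given in the sources used here. The deposited counts were not normalized. Gene symbols and lengths came from GENCODE M21 (98.5% of IDs matched). Genes were filtered with filterByExpr, scaled with TMM factors and tested in edgeR 4.0.16 (R 4.3.3) by the quasi-likelihood test over all 18 libraries, with Benjamini-Hochberg adjustment over 15071 genes. A call is an adjusted p under 0.05, with a second rule of at least 2-fold. CPM are counts per 1000000 of the TMM-scaled total of tested genes, and RPKM divide CPM by exonic length. The common biological coefficient of variation was 0.0458. The smallest exact permutation p for 3 against 3 is 0.1. Intervals and floors cover counting error only. Members and lists were chosen with earlier results of these data known. Full values were given to members with a mean of at least 1 CPM in some group that, at one time or more, were called, changed at least 2-fold and had no overlap between arms. Partners named were Dcc, Neo1 and, by the same limits on calls, overlap and level, the 3 that moved most in each direction at each time. The fit was tested on simulated data with 200 genes changed. Alternatives used limma 3.58.1, DESeq2 1.42.0, other filters and scaling, the time point's libraries alone, a replicate block, the study's threshold of 0.25, and each library left out.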

Additional observations from a re-analysis of the deposited data

Results flagged for a closer look

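For the members below, the effect of FGF6 differed between 2 times, by the interaction term of the edgeR model (adjusted p under 0.05) and by at least 1 on the log2 scale. Values are the later log2 fold change minus the earlier one.

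Between 4 and 8 h the effect moved up for Sema7a (1.79), Sema5a (1.40) and Slit2 (1.03).

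Between 8 and 24 h it moved up for Efna1 (1.72) and Sema6b (1.13). It moved down for Sema3d (-2.61), Plxnc1 (-2.08), Unc5c (-1.84), Plxna2 (-1.78), Nrp1 (-1.62), Sema3e (-1.61), Slit3 (-1.59), Ntn4 (-1.31), Efnb2 (-1.30) and Sema3b (-1.03). Efnb2 stayed higher with FGF6 at both times, and Efna1 went from lower to higher.

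Between 4 and 24 h it moved up for Efna1 (1.81), Sema6b (1.41), Slit2 (1.28), Sema7a (1.17) and Unc5b (1.01). It moved down for Sema3d (-3.29), Plxnc1 (-2.54), Slit3 (-2.47), Nrp1 (-2.34), Plxna2 (-2.10), Sema3e (-2.08), Unc5c (-1.81), Sema3b (-1.71) and Sema3f (-1.23). Nrp1 went from higher to lower.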

How the results depend on the processing

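Of 140 log2 differences of named genes, 135 were called, and none of these turned sign under 8 alternatives or 18 fits with 1 library left out. Most of these genes were named for being called in the same data. The high share called and the lack of turned signs largely follow from that choice. Called values that lost the threshold were Epha7 and Neo1 at 4 h and both interactions of Slit2. Of the values not called, Plxna2 at 4 h was -0.00096 and Slit2 at 4 h -0.062 when scaled by library size alone. With 1 library left out, Slit2 at 4 h ranged from -0.13 to 0.17 and Sema6b at 4 h from -0.28 to 0.079 (0.079 and 0.037 without FGF6 library 2 or 3, and 0.0089 without vehicle library 1). Plxna2 at 4 h passed under several alternatives (0.12 with DESeq2), and Ntn4 at 8 h passed with library sizes alone.

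With at least 10 counts in every library, 13 members of 44 tested were called and at least 2-fold at 8 h, 6 higher and 7 lower, against 22 of 54. Fewer genes were tested, and of all 12178, 726 were higher and 895 lower by this rule. With 1 library left out, members called ranged from 35 to 39 at 4 h, 42 to 46 at 8 h and 45 to 47 at 24 h. Under the study's threshold of 0.25, 45, 50 and 52 members of 54 were called. At 4 h these were 13 higher and 32 lower, against 5111 and 6301 of all 15071 genes. At 8 h they were 18 and 32, against 5696 and 6684 of all genes. At 24 h they were 21 and 31, against 6101 and 6467. Scaling by library size alone moved the median of all genes at 4 h by -0.102, and the difference between 4 and 24 h over all genes from 4263 up and 3794 down to 5393 up and 3127 down.

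Libraries with the same replicate number did not deviate together (correlations from -0.05 to 0.0455), so the numbers were not taken as pairs. With the replicate number as a block, 38, 45 and 46 members were called at 4, 8 and 24 h. Of all 15071 genes, 4300 were then higher and 5165 lower at 4 h. The numbers were 4895 and 5791 at 8 h, and 5416 and 5700 at 24 h. Members with few counts, such as Sema3d, Plxna4, Plxnc1 and Robo3, have the least precise values.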
